A study of Mus musculus with 24 samples.

Results

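The genotype by denervation interaction at day 14 measures, gene by gene, how far the response to 14 days without a nerve differed between MuRF1 knockout (KO) and wild type (WT) muscle. It was computed for all 11317 genes with a named and detected probe, from 12 of the 24 samples of the study, and was called for 1415 of these genes. MuRF1, encoded by Trim63, is a ubiquitin ligase of striated muscle. It marks contractile and other proteins for the proteasome, its transcript rises when muscle wastes, and mice without it are known for keeping more muscle mass after a nerve is cut. Loss of the nerve switches on genes along the whole fibre that are otherwise kept at the synapse or used during development, such as acetylcholine receptor subunits and embryonic myosins.

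Gene expression was measured on Illumina BeadChips in the triceps surae, the muscle group of the calf, of C57/Bl6 mice 6 months old. Each of the 4 groups at day 14 held 3 samples: denervated MuRF1 KO, control MuRF1 KO, denervated WT and control WT. Denervated muscle came from mice in which a piece of the sciatic nerve had been removed on 1 side. Controls were kept alongside without surgery, so an effect of the operation itself cannot be told apart from loss of the nerve. Both KO groups lack MuRF1, and the labels give neither the design of the deletion nor whether the 3 samples of a group were separate mice, so the p-values speak only for the spread among the samples measured.

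The interaction of a gene is its denervated minus control difference in KO muscle minus the same difference in WT muscle, in log2 of the normalized intensity. A positive value means a larger rise or a smaller fall in KO muscle, and a negative value the reverse. The same number is the KO minus WT difference in denervated muscle minus that in control muscle, so each interaction has a part from the denervated groups and a part from the controls. An interaction was said to be carried by the denervated groups where their part was at least 0.7 of it, by the controls where it was at most 0.3, and otherwise by both. All levels below are log2 normalized intensities, a scale on which probes of different genes cannot be set against each other. Errors are standard errors of the fit. Tests are two-sided moderated tests in limma with Benjamini-Hochberg adjustment over 11317 genes, and a gene was called at an adjusted p under 0.05.

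At day 14 the interaction was called for 1415 genes, 12.5% of those tested, 518 positive (4.58%) and 897 negative (7.93%). At least 2-fold interactions numbered 214 positive and 245 negative among them. The metallothioneins Mt1 and Mt2 and the glucocorticoid-responsive Tsc22d3 and Glul were higher in denervated KO than in denervated WT muscle, while the acetylcholine receptor subunit Chrnd, its partner Musk, the neural adhesion gene Nrcam, the microtubule gene Map1b and the transcription factor Mycl were lower there. In 1414 of the 1415 the 3 KO and 3 WT denervated samples, each taken relative to its own genotype's control mean, did not overlap, which held for 49.5% of all genes tested. The same values make up the interaction, so this separation is in part fixed by the call and is a description. It also leaves out the spread of the controls. The number of called genes leaned on single samples. It was 708 without denervated KO replicate 2, 802 without control WT replicate 2 and 879 without control KO replicate 2. It was 907 without denervated WT replicate 2, and between 963 and 1475 with each of the other 8 left out in turn. With arrays scaled by their medians instead of quantiles, 19.4% of called genes were positive in place of 36.6%, and the median interaction of all genes lay at -0.15 in place of -0.02 log2.

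By the share rule most called interactions came from both sides. Of the 1415 called genes 915 (64.7%) were carried by both, 272 (19.2%) by the denervated groups and 228 (16.1%) by the controls. An interaction carried by both has, by this definition, genotype differences of opposite sign in denervated and in control muscle. Choosing genes by the difference of these parts favours opposite signs, and the split was not counted over all genes. The 314 positive interactions carried by both had medians of 0.46 log2 for KO minus WT in denervated muscle and -0.47 in control muscle, and the 601 negative ones -0.42 and 0.41. Taken singly these parts were often too small to be called: for 575 of the 1415 neither the denervated nor the control difference between genotypes passed, for 442 only the denervated one did, for 340 only the control one and for 58 both. KO differed from WT in 783 genes (6.92%) in denervated muscle, 306 higher (2.70%) and 477 lower (4.21%), and in 624 (5.51%) in control muscle, 333 higher (2.94%) and 291 lower (2.57%). Across all genes the denervated and the control difference between genotypes correlated at r = -0.12, a description over genes of the same arrays.

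**Figure D1:**
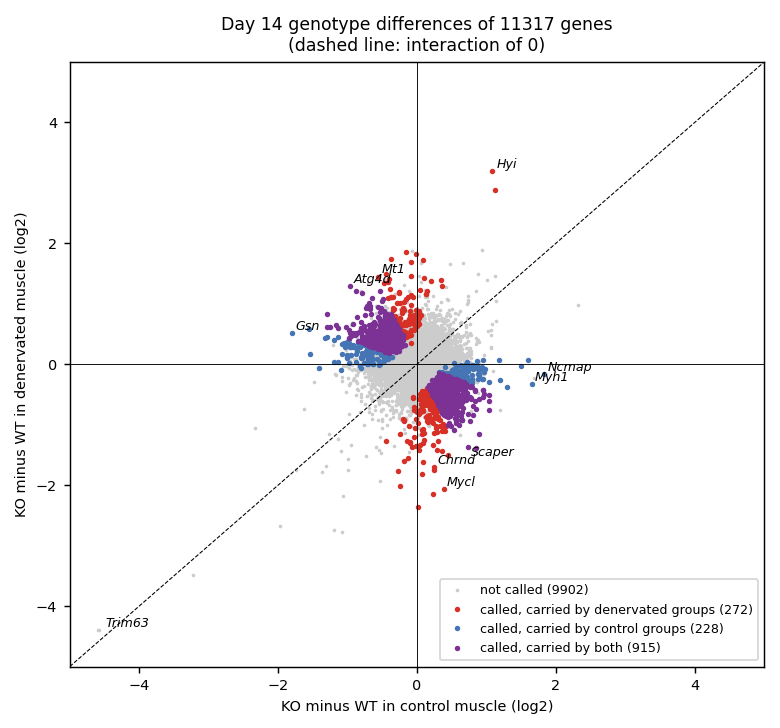
KO minus WT differences at day 14 (log2) in denervated muscle (vertical) against control muscle (horizontal), with 1 point for each of 11317 genes, coloured by what carries a called interaction. The 915 genes carried by both sides lie to the upper left and lower right, where the genotype difference has opposite signs in denervated and control muscle. Trim63 lies far to the lower left near the dashed line of no interaction.

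Seen by genotype, 657 of the called genes changed with denervation only in WT muscle by the same threshold, 373 only in KO muscle, 273 in both in the same direction, 80 in both in opposite directions and 32 in neither. Denervation changed 4150 genes in KO muscle (36.7%) and 4694 in WT muscle (41.5%). Of the 897 negative interactions 623 were genes that rose in denervated WT muscle, as 22.9% of all genes did, and of the 518 positive ones 311 were genes that fell there, as 18.6% of all genes did. In KO muscle 308 of the 897 fell and 221 of the 518 rose. The WT response enters the interaction with a minus sign. Choosing genes by the interaction therefore favours WT rises and KO falls among negative values, and the reverse among positive ones. The comparison with all genes is thus in part fixed by that choice. Where both responses of a called gene had the same sign, the WT response was the larger in 471 genes and the KO response in 197. That split was not counted over all genes. As a description of the called genes, negative interactions were mostly WT rises that were smaller, absent or turned to falls in KO muscle. Positive ones were mostly WT falls that were smaller, absent or turned to rises. How far this goes beyond the effect of choosing by the interaction was not tested.

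Trim63 itself went with the labels. Levels of Trim63 were 5.49, 5.72 and 5.86 log2 in denervated KO and 5.69, 5.69 and 5.78 in control KO samples, against 10.28, 9.95 and 10.04 in denervated WT and 10.29, 10.27 and 10.36 in control WT samples. All 6 KO samples lay below all 6 WT samples, though above background on every array, and KO was 21.1-fold lower in denervated and 24.1-fold lower in control muscle. Its interaction did not pass (0.19 ± 0.24 log2, adjusted p = 0.659), nor did its change with denervation in WT muscle (-0.22 log2, adjusted p = 0.330).

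Of the 100 protein-coding genes that lie closest to Trim63 in the annotation, 50 on each side, 67 were measured and 12 had a called interaction (5 positive, 7 negative, 17.9% against 12.5% of all genes). In 16 of the 67 the genotypes differed in denervated muscle, against 6.92% of all genes, and in 11 in control muscle, against 5.51%. Among those that differed in both, KO minus WT in denervated and control muscle was -4.39 and -4.58 log2 for Pnrc2 and -2.68 and -1.98 for Eya3. It was -1.78 and -1.37 for Gpn2, -1.74 and -1.75 for E2f2 and, in the other direction, 0.71 and 1.13 for Ahdc1. None of these genes had a called interaction. Slc30a2, next to Trim63, was higher in control KO than in control WT muscle (2.31 log2, adjusted p = 0.00111). Ncmap, a membrane protein of the non-compact myelin that Schwann cells make, had the largest fitted interaction of the 12 called. Ncmap lay at 4.58, 4.76 and 4.68 log2 in denervated KO and 6.92, 7.22 and 6.41 in control KO samples, against 4.98, 4.65 and 4.86 in denervated WT and 4.96, 4.91 and 5.20 in control WT samples. It was above background on all 3 control KO arrays and on none of the other 9. Its fitted interaction of -1.99 log2, carried by the controls, thus rests on background values in 3 of the 4 groups and is a description, not a test. In control muscle KO was at least 2.32-fold higher, and Ncmap fell at least 2.53-fold in denervated KO muscle. Myom3, a protein of the sarcomere's M-band, rose by 1.99 log2 in denervated KO and by 3.22 in denervated WT muscle, and its interaction of -1.24 ± 0.23 log2 (adjusted p = 0.00279) was carried by the denervated groups. Cnksr1, a scaffold of Ras signalling, had an interaction of 1.07 (adjusted p = 0.00552) and Cep85, a centrosome protein, one of -0.82 (adjusted p = 0.0354), both carried by the denervated groups.

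Genes were also read in lists by role and by cell type, each against the 12.5% of all genes called, 4.58% positive and 7.93% negative. The lists held 104 different called members in all. Of these 58 to 88 kept their call, in the same direction, when 1 of the 12 samples was left out, fewest without denervated KO replicate 2, and 70 did so when the probes of a gene were averaged. The range kept over the 12 such fits is given beside the counts below.

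The metallothionein Mt1 and the glucocorticoid-responsive Tsc22d3 were among the 12 genes named for the largest positive interactions. Mt1 and Mt2, small proteins that bind zinc and copper, are neighbours on chromosome 8. The samples gave Mt1 levels of 14.30, 14.41 and 14.40 log2 in denervated KO and 11.59, 11.32 and 11.58 in control KO samples, against 12.58, 13.11 and 13.07 in denervated WT and 11.79, 12.23 and 12.14 in control WT samples. Mt1 rose in both genotypes, 7.34-fold in KO and 1.83-fold in WT muscle, and every denervated KO sample exceeded every denervated WT sample. Mt2 measured 9.67, 10.39 and 10.21 log2 in denervated KO and 7.39, 7.27 and 7.19 in control KO samples, against 8.18, 8.55 and 8.44 in denervated WT and 7.45, 7.38 and 7.28 in control WT samples. The interactions were 2.01 ± 0.24 log2 (adjusted p = 8.23e-05) for Mt1 and 1.78 ± 0.32 log2 (adjusted p = 0.00207) for Mt2. Both were carried by the denervated groups, with KO above WT there by 2.73-fold for Mt1 and 3.24-fold for Mt2. The share of Mt1 from the denervated side lay near the limit, and fell below it without control WT replicate 1 or without denervated WT replicate 1 (lowest share 0.677). The promoters of these genes are shown because metallothionein genes respond to metals through the metal response element, in capitals here wherever its core (TGCACNC or TGCGCNC, on either strand) occurs in the 300 bases around the gene start that RefSeq gives on GRCm38.p6 (Mt1 chr8:94178839-94179138, plus strand; Mt2 chr8:94172368-94172667, plus strand).
Mt1: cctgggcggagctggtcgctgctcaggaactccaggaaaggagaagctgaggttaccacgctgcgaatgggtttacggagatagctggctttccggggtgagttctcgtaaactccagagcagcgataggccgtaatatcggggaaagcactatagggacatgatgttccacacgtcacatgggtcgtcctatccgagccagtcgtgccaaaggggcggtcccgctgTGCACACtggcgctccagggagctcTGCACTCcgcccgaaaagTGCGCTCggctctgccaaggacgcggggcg
Mt2: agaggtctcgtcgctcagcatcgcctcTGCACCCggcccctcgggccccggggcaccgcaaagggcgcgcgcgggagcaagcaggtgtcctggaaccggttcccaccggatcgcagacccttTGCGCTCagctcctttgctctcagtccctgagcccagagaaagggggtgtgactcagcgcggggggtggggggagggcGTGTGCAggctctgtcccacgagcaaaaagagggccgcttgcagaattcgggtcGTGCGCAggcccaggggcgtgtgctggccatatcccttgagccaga
The core occurs 3 times in the Mt1 and 4 times in the Mt2 window, and at least once in 25.7% of 32851 promoter windows of that length. A match is a description of the letters and not of binding.

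Tsc22d3, the glucocorticoid-induced leucine zipper protein, went in opposite directions in the genotypes. Levels of Tsc22d3 were 9.12, 8.99 and 9.30 log2 in denervated KO and 7.68, 8.03 and 8.18 in control KO samples, against 7.25, 6.98 and 7.95 in denervated WT and 8.41, 8.68 and 7.94 in control WT samples. Denervation raised it in KO muscle (1.17 log2, adjusted p = 0.00269) and lowered it in WT muscle (-0.94 log2, adjusted p = 0.0112), for an interaction of 2.12 ± 0.40 log2 (adjusted p = 0.00286) carried by the denervated groups. Its other probe gave 1.75 ± 0.34 log2. Glul, the glutamine synthetase that glucocorticoids raise in muscle, rose in KO muscle (1.42 log2, adjusted p = 0.000106) with no called change in WT muscle (-0.06 log2, adjusted p = 0.870). Glul lay at 7.81, 8.63 and 8.16 log2 in denervated KO and 6.70, 6.69 and 6.95 in control KO samples, against 7.55, 6.71 and 7.03 in denervated WT and 6.87, 7.29 and 7.31 in control WT samples. Its interaction was 1.48 ± 0.35 log2 (adjusted p = 0.00964), carried by the denervated groups, in which the lowest KO sample lay above the highest WT sample. Of the 24 measured genes of the metallothionein, glucocorticoid and FoxO response list, these 4 were positive, Cebpd, a transcription factor of acute stress, was negative (-0.81, adjusted p = 0.0341; called in 5 of the 12 fits that left out 1 sample, adjusted p up to 0.0976), and 19 did not pass, 20.8% called with 4 to 5 kept. The list's median was 0.00 log2 against -0.02 for all genes, and 12 of its genes had a positive and 12 a negative sign.

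**Figure D2:**
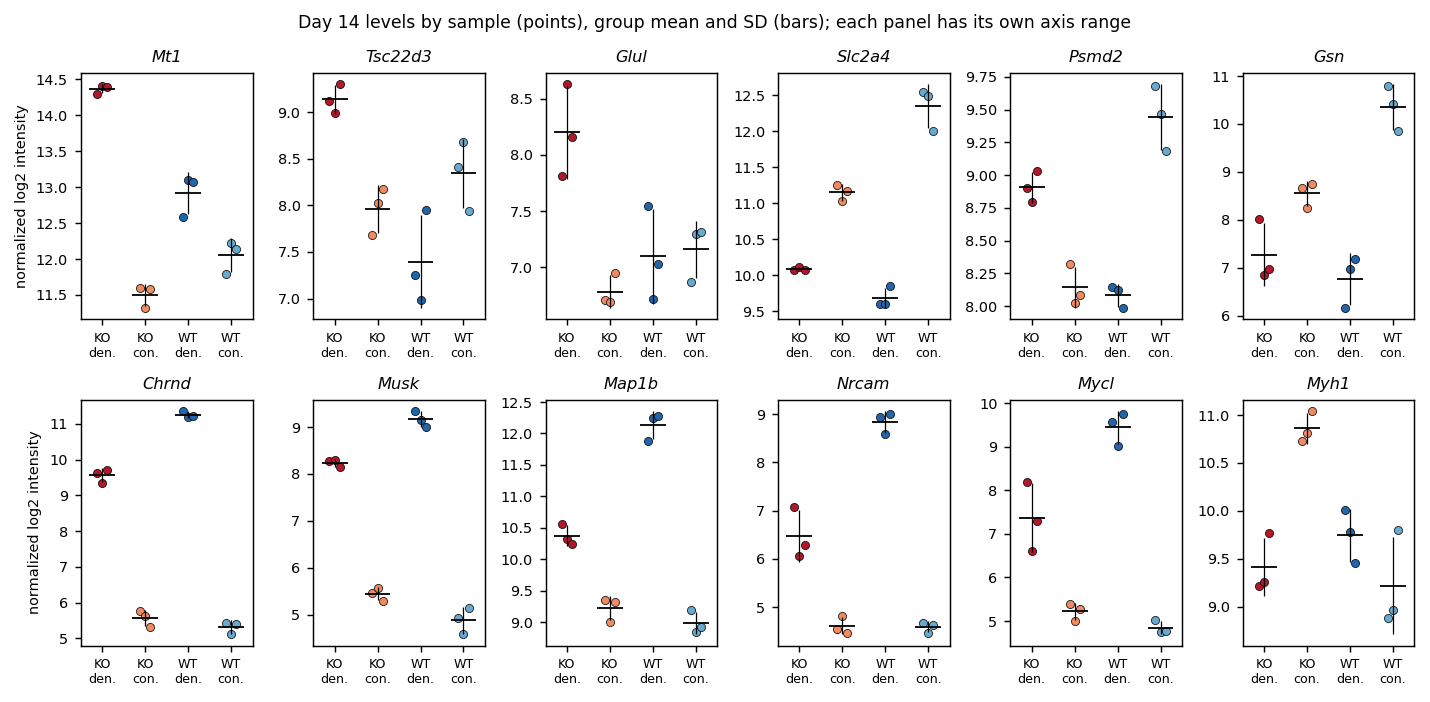
Day 14 levels (log2 normalized intensity, vertical, with a range of its own in each panel) of 12 genes in the 3 samples of each group (points), with group mean and SD (bars), from left to right denervated KO, control KO, denervated WT and control WT. Mt1, Tsc22d3 and Glul stand highest in denervated KO muscle, Chrnd, Musk, Map1b, Nrcam and Mycl in denervated WT muscle, and for Gsn, Slc2a4 and Myh1 the genotypes lie furthest apart in control muscle.

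Csrp1, Cyp4f14 and Hyi were also higher in denervated KO than in denervated WT muscle. Csrp1, a LIM domain protein of actin filaments, rose 3.998-fold in KO muscle and did not change detectably in WT muscle (0.07 log2, adjusted p = 0.768). The samples gave Csrp1 levels of 11.42, 11.44 and 11.18 log2 in denervated KO and 9.39, 9.26 and 9.38 in control KO samples, against 9.75, 9.94 and 9.89 in denervated WT and 9.66, 9.99 and 9.73 in control WT samples. All 3 denervated KO samples were above the other 9, and its interaction was 1.93 ± 0.22 log2 (adjusted p = 7.04e-05), carried by the denervated groups. Cyp4f14, a cytochrome P450 of fatty acid hydroxylation, was above background on the 3 denervated KO arrays, on 1 denervated WT array and on no control array, and so passed the detection filter through the group in which it is high. Cyp4f14 measured 6.85, 7.18 and 7.51 log2 in denervated KO and 4.76, 5.11 and 4.59 in control KO samples, against 5.15, 4.95 and 5.87 in denervated WT and 4.94, 5.06 and 4.95 in control WT samples. Cyp4f14 rose at least 2.95-fold in KO muscle. Its fitted interaction of 2.02 log2 depends on control values at background and on that filter, so it is a description and not a test. Hyi, a hydroxypyruvate isomerase, was higher in KO than in WT muscle by 9.17-fold in denervated muscle, with a smaller control difference that did not pass (1.07 log2, adjusted p = 0.0565). Levels of Hyi were 10.97, 11.14 and 11.21 log2 in denervated KO and 9.56, 10.003 and 10.09 in control KO samples, against 7.72, 7.85 and 8.15 in denervated WT and 8.26, 10.03 and 8.14 in control WT samples. Control WT replicate 2 stood apart from the other control WT samples, and the interaction of 2.12 ± 0.46 log2 (adjusted p = 0.00596) was 1.51 without it. A dimmer probe of Hyi gave -0.03 ± 0.26.

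Further positive interactions were falls that were larger in WT than in KO muscle. Gsn, gelsolin, which severs and caps actin filaments, had the most positive interaction named here, 2.31 ± 0.53 log2 (adjusted p = 0.00851). Gsn lay at 8.02, 6.84 and 6.97 log2 in denervated KO and 8.67, 8.25 and 8.74 in control KO samples, against 6.16, 6.98 and 7.18 in denervated WT and 10.79, 10.42 and 9.85 in control WT samples. Denervation lowered it 11.97-fold in WT and 2.42-fold in KO muscle, and the denervated samples of the genotypes overlapped while the controls did not, so the interaction was carried by the controls, where KO was 3.48-fold lower. Slc2a4, the insulin-responsive glucose transporter GLUT4, had the same form. The samples gave Slc2a4 levels of 10.08, 10.12 and 10.08 log2 in denervated KO and 11.26, 11.03 and 11.18 in control KO samples, against 9.60, 9.60 and 9.85 in denervated WT and 12.55, 12.49 and 12.002 in control WT samples. Its interaction was 1.604 ± 0.27 log2 (adjusted p = 0.00127), carried by the controls, where KO lay 2.29-fold below WT. Adh1, an alcohol dehydrogenase that also oxidises retinol, fell 4.38-fold in WT muscle and did not pass in KO muscle (-0.16 log2, adjusted p = 0.706), with an interaction of 1.97 ± 0.42 log2 (adjusted p = 0.00547) carried by both. Btbd2, a BTB domain protein, had an interaction of 2.13 ± 0.40 log2 (adjusted p = 0.00275) carried by the controls. Its share from the denervated side was between 0.21 and 0.318 over the alternatives, crossing the limit without denervated WT replicate 2 or control KO replicate 2.

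Protein breakdown genes appear on both sides. Psmd2, the base subunit of the proteasome's regulatory particle that receives ubiquitin receptors, rose in KO and fell in WT muscle. Psmd2 measured 8.90, 8.79 and 9.03 log2 in denervated KO and 8.32, 8.02 and 8.08 in control KO samples, against 8.15, 8.12 and 7.98 in denervated WT and 9.68, 9.46 and 9.18 in control WT samples. The control WT samples were the highest and the denervated KO samples next, and the interaction of 2.12 ± 0.41 log2 (adjusted p = 0.00295) was carried by both. Rnf126, a RING ubiquitin ligase, fell 2.99-fold in WT muscle with no called change in KO muscle (0.52 log2, adjusted p = 0.153), an interaction of 2.10 ± 0.39 log2 (adjusted p = 0.00252) that its other probe gave as 2.06 ± 0.34. Atg4d, a protease that processes the ATG8 proteins of autophagy, had 2.26 ± 0.31 log2 (adjusted p = 0.000241), carried by both. This rests on 1 of its 3 kept probes: the dimmer ones gave -0.41 ± 0.32 and 0.11 ± 0.43, and the call was lost when probes were averaged. Of 32 proteasome subunits 4 were positive (Psmd2, Psma1, Psma7 and Psmc2), none negative and 28 did not pass, 12.5% called, the share of all genes, with 2 to 4 kept, and the list's median of 0.15 log2 was 0.02 with median scaling, under which Psmd2 alone stayed called. Psma7, a core subunit, was the only 1 of the other 3 called in all 12 fits that left out 1 sample (0.74, adjusted p = 0.0116).

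Of the 22 measured genes of the ubiquitin ligase list 1 was positive, 4 were negative and 17 did not pass (22.7% called against 12.5% of all genes, 2 to 4 kept; median -0.20 log2). Fbxo32, atrogin-1, the F-box protein that is induced alongside MuRF1 in wasting muscle, was the positive gene. Levels of Fbxo32 were 11.85, 12.15 and 11.88 log2 in denervated KO and 10.75, 10.45 and 10.85 in control KO samples, against 10.92, 11.07 and 10.67 in denervated WT and 11.11, 11.40 and 10.03 in control WT samples. It rose 2.42-fold in KO muscle and showed no called change in WT muscle (0.04 log2, adjusted p = 0.932), but its interaction of 1.24 ± 0.40 log2 (adjusted p = 0.0445) was called in 1 of the 12 fits that left out 1 sample, with adjusted p up to 0.130, and in none of the fits with median scaling, the authors' processed values or no detection filter. Its second probe gave 1.94 ± 0.47. The mitochondrial ligase Mul1 (-0.83, adjusted p = 0.00341) and Traf6, a ligase of inflammatory signalling (-0.92, adjusted p = 0.0145), were negative in all 12 such fits (Traf6 not with averaged probes), while Mdm2, the p53 ligase (-0.69, adjusted p = 0.0411), and Nedd4 (-0.78, adjusted p = 0.0361) were called in 1 and 3 of them, with adjusted p up to 0.123 and 0.108. In the autophagy and lysosome list 3 of 21 were positive, 2 negative and 16 did not pass (23.8% called, 1 to 4 kept). Sqstm1, the cargo receptor p62, rose 2.63-fold in KO and 1.40-fold in WT muscle, an interaction of 0.91 ± 0.18 log2 (adjusted p = 0.00351) carried by the controls.

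Genes of the acetylcholine receptor and its synapse were among the negative interactions. Chrnd, the delta subunit of the muscle acetylcholine receptor, had no signal above background in control WT muscle and was above it on 1 control KO array. Chrnd lay at 9.64, 9.34 and 9.72 log2 in denervated KO and 5.77, 5.62 and 5.32 in control KO samples, against 11.37, 11.20 and 11.22 in denervated WT and 5.44, 5.11 and 5.41 in control WT samples. It rose in both genotypes, at least 49.4-fold in WT muscle, and every denervated KO sample lay below every denervated WT sample, by 3.24-fold on average. The fitted interaction of -1.95 ± 0.21 log2 (adjusted p = 7.04e-05) was carried by the denervated groups, as in all 24 alternatives. Its dimmer probes gave -1.10 ± 0.34 and -0.79 ± 0.36. Musk, the receptor kinase that gathers acetylcholine receptors at the synapse, followed the same order, with no control array above background. The samples gave Musk levels of 8.28, 8.29 and 8.14 log2 in denervated KO and 5.46, 5.57 and 5.30 in control KO samples, against 9.35, 9.14 and 9.01 in denervated WT and 4.92, 4.57 and 5.13 in control WT samples. It rose at least 6.13-fold in KO and at least 11.6-fold in WT muscle, and its interaction of -1.49 ± 0.21 log2 (adjusted p = 0.00041) had KO 1.90-fold lower in denervated muscle. Its share from the denervated side, which here depends on control values at background, was 0.462 to 0.75 over the alternatives and passed 0.7 without background correction, with an offset of 50 and with averaged probes. The alpha subunit Chrna1 was weaker. Chrna1 measured 6.29, 6.40 and 6.17 log2 in denervated KO and 5.03, 5.30 and 4.95 in control KO samples, against 6.96, 7.17 and 7.17 in denervated WT and 4.94, 5.21 and 5.05 in control WT samples. Its interaction of -0.85 ± 0.28 log2 (adjusted p = 0.04999) passed by a narrow margin and was lost whichever of the 12 samples was left out, with adjusted p up to 0.123.

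The promoters of Chrna1 and Musk are shown because both are raised in denervated fibres through myogenic factors that bind E-boxes. Capitals mark the E-box CAGNTG on either strand in the RefSeq windows of 300 bases on GRCm38.p6 (Chrna1 chr2:73580289-73580588, minus strand; Musk chr4:58285712-58286011, plus strand).
Chrna1: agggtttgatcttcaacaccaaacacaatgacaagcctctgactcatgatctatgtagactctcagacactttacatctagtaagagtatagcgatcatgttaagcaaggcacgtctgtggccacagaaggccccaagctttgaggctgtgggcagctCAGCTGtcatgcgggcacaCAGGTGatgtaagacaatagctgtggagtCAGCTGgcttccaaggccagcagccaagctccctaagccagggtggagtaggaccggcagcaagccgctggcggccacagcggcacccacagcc
Musk: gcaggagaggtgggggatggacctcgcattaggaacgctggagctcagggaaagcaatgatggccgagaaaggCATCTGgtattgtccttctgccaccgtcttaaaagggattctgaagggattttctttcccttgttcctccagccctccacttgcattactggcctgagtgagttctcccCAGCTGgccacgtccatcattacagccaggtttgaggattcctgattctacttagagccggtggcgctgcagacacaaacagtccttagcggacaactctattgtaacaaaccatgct
This E-box occurs 3 times in the Chrna1 and 2 times in the Musk window, and at least once in 51.4% of all 32851 windows.

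Of the 18 measured genes of the acetylcholine receptor and neuromuscular synapse list 6 were negative, 1 positive and 11 did not pass, 38.9% called against 12.5% of all genes, with 4 to 6 kept and a median of -0.46 log2 against -0.02. In denervated muscle 10 of the 18 were lower and 1 higher in KO than in WT, against 2 lower and 1 higher in control muscle. Lrp4, the agrin receptor, was negative in all 12 fits that left out 1 sample (-0.93 ± 0.23 log2, adjusted p = 0.0137), although not with the trend against gene length removed, and rose 1.44-fold in KO and 2.74-fold in WT muscle. Agrn, agrin (-0.74, adjusted p = 0.0303), and Ncam1, a neural adhesion molecule (-0.74, adjusted p = 0.0446), were called in 4 and 1 of these 12 fits, with adjusted p up to 0.0794 and 0.112. The gene in the other direction was Tuba8, an alpha tubulin, which fell less in KO muscle. Levels of Tuba8 were 12.54, 12.69 and 12.62 log2 in denervated KO and 13.59, 13.35 and 13.48 in control KO samples, against 11.42, 11.50 and 11.59 in denervated WT and 13.60, 13.56 and 13.66 in control WT samples. Its interaction was 1.25 ± 0.19 log2 (adjusted p = 0.000484), carried by the denervated groups, and its 2 dimmer probes gave 0.02 ± 0.39 and -0.22 ± 0.35, so that the call was lost with averaged probes.

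Nrcam, Map1b and Krt8, which are not on that list, were negative as well. Nrcam, a cell adhesion molecule of neurons and of glial contacts, was above background on all denervated and on no control arrays. Nrcam lay at 7.08, 6.07 and 6.28 log2 in denervated KO and 4.55, 4.82 and 4.47 in control KO samples, against 8.94, 8.59 and 9.01 in denervated WT and 4.68, 4.47 and 4.63 in control WT samples. It rose at least 1.81-fold in KO and at least 9.27-fold in WT muscle, and its interaction of -2.39 ± 0.37 log2 (adjusted p = 0.000694) was carried by the denervated groups, where KO was 5.16-fold lower. Where both control groups are below background, as here and for Musk, Chrna1, Mycl, Krt8, Sln, Myod1 and Cyp4f14, or nearly so, as for Chrnd and Kcnk5, the fitted interaction depends on values at background, and the denervated difference is the measured part. For Ncmap, detected at day 14 in control KO muscle alone, the measured part is the control difference. Map1b, a microtubule-associated protein of growing axons, was detected in every sample. The samples gave Map1b levels of 10.56, 10.33 and 10.25 log2 in denervated KO and 9.35, 9.01 and 9.33 in control KO samples, against 11.87, 12.25 and 12.28 in denervated WT and 9.19, 8.85 and 8.92 in control WT samples. Denervation raised it 2.22-fold in KO and 8.86-fold in WT muscle, and the interaction was -1.996 ± 0.22 log2 (adjusted p = 7.04e-05). Of its 3 dimmer probes 1 was also called (-1.10 ± 0.27), and the others gave -0.32 ± 0.33 and -0.39 ± 0.23. Krt8, a keratin that muscle makes when denervated, rose at least 41.4-fold in KO and at least 139.8-fold in WT muscle, with an interaction of -1.50 ± 0.37 log2 (adjusted p = 0.0132) carried by the denervated groups and not called in the authors' processed values.

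Mycl, a transcription factor of the Myc family, had the most negative interaction, -2.45 ± 0.43 log2 (adjusted p = 0.00168). Mycl measured 8.20, 6.62 and 7.30 log2 in denervated KO and 5.38, 5.01 and 5.27 in control KO samples, against 9.57, 9.02 and 9.74 in denervated WT and 5.01, 4.74 and 4.76 in control WT samples. No control array detected it, and it rose at least 3.36-fold in KO and at least 14.0-fold in WT muscle, and the interaction was carried by the denervated groups, where KO was 4.20-fold lower. Kcnk5, a background potassium channel, was detected on all denervated arrays. Levels of Kcnk5 were 6.01, 6.52 and 6.24 log2 in denervated KO and 5.72, 4.96 and 5.11 in control KO samples, against 8.25, 8.005 and 7.96 in denervated WT and 5.37, 5.15 and 5.04 in control WT samples. Of the control arrays 1 KO and no WT array detected it. It rose at least 5.42-fold in WT muscle, KO was 3.52-fold lower than WT in denervated muscle, and the fitted interaction was -1.89 ± 0.35 log2 (adjusted p = 0.00257). Its second probe gave 0.10 ± 0.39, and the call was lost when the probes were averaged. Haus8, a subunit of the augmin complex that branches microtubules, rose 4.55-fold in WT muscle only (0.25 log2, adjusted p = 0.525 in KO), an interaction of -1.94 ± 0.39 log2 (adjusted p = 0.00434). Ttc39c, a tetratricopeptide repeat protein, had -2.37 ± 0.59 log2 (adjusted p = 0.0137). Ttc39c lay at 6.08, 5.59 and 5.91 log2 in denervated KO and 5.80, 5.93 and 5.70 in control KO samples, against 6.57, 9.02 and 8.43 in denervated WT and 5.21, 5.22 and 6.31 in control WT samples. Denervated WT replicate 1 lay well below the other denervated WT samples and yet above every other sample, and a second probe gave -2.38 ± 0.56. Of the control WT arrays only 1 detected Ttc39c and only 1 Haus8.

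Of the 12 most negative genes 5 were not carried by the denervated groups alone, Ncmap among them. Myh1, the type IIx fast myosin heavy chain, whose sequence is close to that of other fast myosins, was highest in control KO muscle. The samples gave Myh1 levels of 9.21, 9.26 and 9.76 log2 in denervated KO and 10.73, 10.82 and 11.05 in control KO samples, against 10.01, 9.78 and 9.45 in denervated WT and 8.88, 8.97 and 9.80 in control WT samples. It fell 2.74-fold in KO muscle and did not pass in WT muscle (0.53 log2, adjusted p = 0.231), an interaction of -1.98 ± 0.48 log2 (adjusted p = 0.0118) carried by the controls, where KO was 3.14-fold higher, while the denervated samples overlapped. Vat1l was carried by both (-1.79 ± 0.33 log2, adjusted p = 0.00244), with KO minus WT at -0.76 log2, adjusted p = 0.0540, in denervated muscle and at 1.03 log2, adjusted p = 0.0157, in control muscle. Scaper, an endoplasmic reticulum protein that binds cyclin A, was carried by both as well (-2.11 ± 0.47 log2, adjusted p = 0.00719). Its share from the denervated side passed 0.7 without control WT replicate 2 (up to 0.731). Gatad2a, a subunit of a nucleosome remodelling and deacetylase complex, had -2.05 ± 0.55 log2 (adjusted p = 0.0209). This call was lost without control KO replicate 1 (adjusted p = 0.0535) and in a fit of the day 14 samples alone (adjusted p = 0.0541). Unc93b1, which carries Toll-like receptors to endosomes and had a positive interaction (1.91 ± 0.42 log2, adjusted p = 0.00666, or at least 2.82-fold), was carried by both and was above background on every array outside the control KO group and on none within it. Its share from the denervated side was 0.193 to 0.428 over the alternatives and fell below 0.3, that is, to carried by the controls, in the authors' processed values and without denervated WT replicate 1, denervated WT replicate 2 or denervated KO replicate 1.

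Of the called genes of the growth signalling list all but Slc2a4 were negative, while over its measured genes 9 had a positive and 12 a negative sign. In the list of IGF, insulin and mTORC1 signalling, the pathway through which insulin-like growth factors drive protein synthesis, 5 of 21 measured genes were negative, 1 positive and 15 did not pass (28.6% called against 12.5% of all genes, 5 to 6 kept; median -0.06 log2). Rptor, raptor, the scaffold of the mTORC1 complex, was the most negative. Rptor measured 11.47, 11.04 and 11.12 log2 in denervated KO and 10.92, 10.90 and 10.88 in control KO samples, against 11.93, 12.15 and 12.05 in denervated WT and 10.01, 9.99 and 10.27 in control WT samples. It rose 3.86-fold in WT muscle and did not pass in KO muscle (0.31 log2, adjusted p = 0.104). The interaction of -1.64 ± 0.21 log2 (adjusted p = 0.000117), and -1.59 ± 0.21 from a second bright probe, was carried by both, with KO below WT in denervated muscle and above it in control muscle. Tsc2, an inhibitor of mTORC1 (-1.07, adjusted p = 0.000815), the kinase Akt2 (-0.82, adjusted p = 0.00321), and Sesn3, a sestrin that restrains mTORC1 (-0.86, adjusted p = 0.00583), were carried by both as well and were called in all 12 fits that left out 1 sample. With averaged probes Akt2 and Sesn3 lost their calls and their place in that class, and their dimmer probes gave 0.14 ± 0.43 and 0.53 ± 0.25. The kinase Mtor itself (-0.70, adjusted p = 0.0175) lost its call without denervated KO replicate 2 (adjusted p = 0.0564), with averaged probes and with the trend against gene span removed. The negative members thus include activators and inhibitors of the pathway. The positive member was Slc2a4, described above. Eif4ebp1, held on another list, was positive as well (0.76 log2, with 0.84 ± 0.30 from a dimmer probe). It lost its call in 5 of the 12 fits that left out 1 sample, with adjusted p up to 0.0722.

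Genes of excitation-contraction coupling, which link the membrane signal to calcium release, had 4 positive and 1 negative interactions among 15 measured (33.3% called against 12.5% of all genes, 3 to 5 kept; median 0.23 log2, 0.06 with median scaling). Cacng1, the gamma subunit of the muscle calcium channel, rose 4.89-fold in KO and 1.84-fold in WT muscle. Levels of Cacng1 were 14.30, 14.63 and 14.31 log2 in denervated KO and 12.14, 12.14 and 12.09 in control KO samples, against 13.88, 13.72 and 13.84 in denervated WT and 12.94, 13.18 and 12.69 in control WT samples. Its KO samples were the highest when denervated and the lowest in controls, and the interaction was 1.41 ± 0.21 log2 (adjusted p = 0.000484), carried by both. Asph, the junctin and junctate gene (0.96, adjusted p = 0.00607), was called in all 12 fits without 1 sample and lost its call with averaged probes, since its 8 dimmer probes gave from -0.13 ± 0.26 to 0.95 ± 0.35. Cacnb1, the channel's beta subunit (0.86, adjusted p = 0.0296), and Jsrp1, a junctional protein (0.70, adjusted p = 0.0263), were called in 6 and 7 of them, with adjusted p up to 0.0816 and 0.0806, and not with median scaling. Sln, sarcolipin, an inhibitor of the calcium pump, was negative. Sln lay at 5.50, 5.96 and 5.81 log2 in denervated KO and 4.81, 5.04 and 5.17 in control KO samples, against 6.79, 6.91 and 6.87 in denervated WT and 4.69, 4.61 and 4.64 in control WT samples. It was above background on no control array and on all denervated ones, and its interaction of -1.47 ± 0.21 log2 (adjusted p = 0.00041) was carried by the denervated groups.

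Muscle regulators and contractile genes moved singly. Of 17 myogenic and denervation-signalling regulators (11.8% called) Myod1, the myogenic transcription factor, was negative (-1.18 ± 0.23 log2, adjusted p = 0.00373) and Mef2c, another, positive (1.01 ± 0.17 log2, adjusted p = 0.00151). Myod1 rose at least 2.94-fold in KO and at least 5.12-fold in WT muscle. The bright second probe of Mef2c gave 0.03 ± 0.24, and the call was lost with averaged probes. In the list of 9 developmental contractile isoforms 2 were called (0 to 1 kept). Myh8, the perinatal myosin, was negative (-1.44, adjusted p = 0.0361) and called in 3 of the 12 fits that left out 1 sample, with adjusted p up to 0.106. The other was Myh10, a non-muscle myosin that the list also holds (-0.92, adjusted p = 0.0450). It was called in 1 of these fits, with adjusted p up to 0.0977, and its dimmer probes gave -0.30 ± 0.33 and -0.45 ± 0.30. Of 16 fast-fibre genes Mybpc2, the fast myosin-binding protein C, was positive (1.67 ± 0.29 log2, adjusted p = 0.00169) and Myh1 negative. None of 12 slow-fibre genes passed. In the membrane, adhesion and dystrophin list 4 of 21 were negative and 2 positive (28.6% called, 2 to 4 kept; median -0.34 log2), among them Dysf, dysferlin, which repairs the membrane (-1.17 ± 0.19 log2, adjusted p = 0.00113, carried by both; its 2 dimmer probes gave -0.51 ± 0.25 and 0.09 ± 0.33, and averaging the probes ended the call). Ky, a muscle protease-like protein of the Z-disc, fell 20.9-fold in KO and 8.39-fold in WT muscle (-1.32 ± 0.29 log2, adjusted p = 0.00602).

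Lists of energy metabolism lay on both sides of the 12.5% of all genes. Of 45 oxidative phosphorylation genes 1 passed (2.22%), Ndufa5 of complex I (0.74, adjusted p = 0.0124), and of 20 tricarboxylic acid cycle genes 3 did (15%, 2 to 3 kept), Suclg1 positive (0.92, adjusted p = 0.00318; not with averaged probes), Ogdh (-0.73, adjusted p = 0.0131) and Idh3a (-0.67, adjusted p = 0.0341) negative, the last in 5 of the 12 fits that left out 1 sample, with adjusted p up to 0.0963. Fatty acid genes had 3 positive and 1 negative of 22 (18.2%, 0 to 3 kept), and all 4 calls were lost with median scaling and with averaged probes. The glycolysis and glycogen list had 1 of each of 21 (9.52%), with glycogenin, Gyg, positive (1.27 ± 0.23 log2, adjusted p = 0.00234). Cytosolic ribosomal proteins had 1 of 29 called, a median of 0.26 log2 and a positive sign in 26. The median was -0.02 for all genes and 0.16 for the shortest bin of genes by span, described below. Srm, spermidine synthase of the polyamine pathway, rose 1.94-fold in KO and fell 1.68-fold in WT muscle, an interaction of 1.70 ± 0.25 log2 (adjusted p = 0.000484) carried by both. None of 17 antioxidant enzymes passed.

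The p53 and the clock list each had 28.6% called, against 12.5% of all genes, and the myostatin, activin and BMP list 16.7%. Of 14 p53 and growth arrest genes (2 to 4 kept) Zmat3 was negative (-1.30, adjusted p = 0.00669) and Phlda3 positive (1.06, adjusted p = 0.00905), both targets of p53, and 2 others were negative. Of 14 circadian clock genes (3 to 4 kept) the core activator Clock was negative and carried by the denervated groups (-1.02 ± 0.18 log2, adjusted p = 0.00174), Tef, a transcription factor of clock output, was negative on its bright probe (-1.08, adjusted p = 0.0104, with 1.04 ± 0.35 from a dimmer one), Per2 was negative (-1.10, adjusted p = 0.0203, not called without control KO replicate 3, adjusted p = 0.0555) and Rora positive (0.96, adjusted p = 0.0121; not with median scaling). In the myostatin, activin and BMP list Fst, follistatin, which blocks myostatin and activin, rose 3.70-fold in KO and 1.59-fold in WT muscle (1.22 ± 0.27 log2, adjusted p = 0.00674), and the receptor Tgfbr1 rose 1.63-fold in KO and 3.32-fold in WT muscle (-1.03 ± 0.25 log2, adjusted p = 0.0126; not with averaged probes). Translation factors had 2 positive and 3 negative of 21 (23.8%, 2 to 5 kept), and of 19 genes of ATF4 and amino acid stress the transfer RNA synthetases Gars (-0.82, adjusted p = 0.00445) and Aars (-0.77, adjusted p = 0.0118; not with averaged probes) were negative (10.5%). The extracellular matrix list had 1 of 28 called, and proliferation, immediate-early and heat shock lists 2 of 22, 2 of 20 and 1 of 17, all negative.

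**Figure D3:**
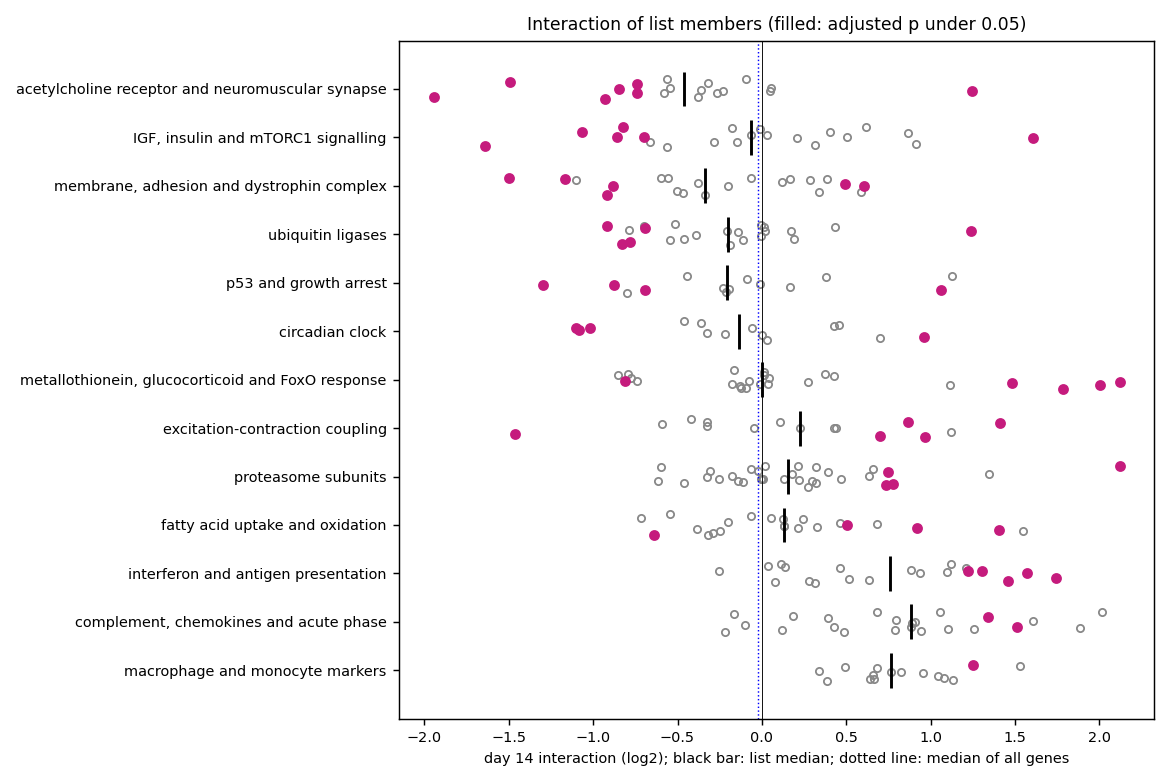
Day 14 interaction (log2, horizontal) of the measured members of 13 gene lists, 1 point per gene, filled where adjusted p is under 0.05, with the list median (black bar) and the median of all genes (dotted line, -0.02). Synapse genes lie mostly left of 0 and interferon, complement and macrophage genes mostly right of it.

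Immune genes leaned to positive values. Of 20 interferon and antigen presentation genes 5 were positive, none negative and 15 did not pass, 25% called against 12.5% of all genes, with a median of 0.76 log2 and a positive sign in 19. Of the 5, 2 to 5 kept their call with 1 sample left out, 2 of them without denervated KO replicate 1, control KO replicate 2, denervated WT replicate 3 or control WT replicate 2. H2-Eb1, a class II chain, and Ifit3, an interferon-induced gene, were each called in 2 of the 12 fits and the interferon regulatory factor Irf1 in 8, with adjusted p up to 0.0930, 0.09997 and 0.0769. B2m, the light chain of class I molecules, fell in WT muscle (-0.68 log2, adjusted p = 0.0148), and its change in KO muscle did not pass (0.55 log2, adjusted p = 0.0511). The samples gave B2m levels of 13.50, 12.73 and 12.73 log2 in denervated KO and 12.43, 12.38 and 12.50 in control KO samples, against 12.30, 12.08 and 12.30 in denervated WT and 12.93, 13.01 and 12.77 in control WT samples. Its interaction was 1.22 ± 0.30 log2 (adjusted p = 0.0132), carried by both, and Psmb8, an immunoproteasome subunit, had 1.57 ± 0.42 log2 (adjusted p = 0.0197). Denervated KO replicate 1 was the highest for both genes. In the list of complement, chemokines and acute phase 2 of 23 were positive (8.70%), among them Lbp, which binds bacterial lipopolysaccharide (1.51 ± 0.36 log2, adjusted p = 0.0114), with a median of 0.89 log2.

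Markers of other cells in the muscle were read beside these. All 15 measured macrophage and monocyte markers had a positive sign (median 0.77 log2) and 1 passed (6.67%), Lyz2, in 3 of the 12 fits that left out 1 sample (1.25, adjusted p = 0.0347, up to 0.0997). The summed normalized intensity of the list was 18056 to 21419 in denervated KO and 5786 to 6569 in control KO samples, against 10652 to 18756 in denervated WT and 6615 to 8790 in control WT samples. By this sum, in which bright probes weigh most, denervated samples of both genotypes stood above controls, and the genotypes overlapped when denervated. Gene by gene, 12 of the 15 were called as rising with denervation in KO and 5 in WT muscle. Their median changes were 1.20 and 0.19 log2. Cd163 was detected on none of the 12 arrays, Itgam and Ptprc on 1 and Ccr2 on 2. The 6 neutrophil markers measured were all positive in sign and none passed. Their sum was 5639 to 10084 in denervated KO and 408 to 500 in control KO samples, against 3473 to 6549 in denervated WT and 430 to 534 in control WT samples. Bright probes weigh most in that sum as well. The median change of the 6 genes with denervation was 0.76 log2 in KO and 0.15 in WT muscle. Called as changed were 3 up and 0 down in KO muscle, and 1 up and 1 down in WT muscle. Among lymphocyte markers Cd3d, a T cell receptor chain, was above background on the 3 denervated KO arrays alone of the 12 at day 14, at least 1.99-fold above denervated WT muscle, while Cd3e, Cd3g and Cd4 were detected on 2, 1 and none of the 12. Cd8b1 was negative on its bright probe (-1.02, adjusted p = 0.00497) and positive on its dim one (1.01 ± 0.31), and the call was lost with averaged probes. In bulk muscle fewer cells of a type and less RNA per cell cannot be told apart, and the part of these cells in any interaction was not tested.

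Of the remaining marker lists, endothelial markers had 3 of 16 positive, led by the TGF-beta co-receptor Eng (1.20, adjusted p = 0.0107; not with averaged probes), fibroblast and adipogenic progenitor markers 2 of 11 (Gsn, described above, and Smoc2) and pericyte and smooth muscle markers 1 of 10. No mast cell, adipocyte, Schwann cell, tendon, satellite cell or blood marker passed, and Pax7 and Myf5, which define satellite cells, were detected on no array. S100b and Gfap of Schwann cells were undetected too. Skeletal muscle fibre markers were bright throughout, with each of the 14 that have a probe detected and a summed intensity of 438553 to 487972 in denervated KO and 553048 to 561101 in control KO samples, against 467948 to 487381 in denervated WT and 548414 to 566074 in control WT samples.

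Called genes differed in length. The median gene span, the stretch of genome from first to last base in the RefSeq annotation, was 12.4 kb for positive and 37.5 kb for negative interactions, against 21.2 kb for genes not called. With genes cut by span into 4 bins of equal size, 7.04% were positive and 2.44% negative in the shortest bin, and 1.98% and 11.5% in the longest. The rank correlation of interaction and span across 11301 genes was -0.26, a description over genes of the same arrays. Per sample, the median deviation of the longest bin of genes minus that of the shortest was 0.03, -0.15 and -0.07 log2 in denervated KO and 0.10, 0.11 and 0.10 in control KO samples, against 0.06, 0.07 and 0.02 in denervated WT and -0.06, -0.16 and -0.09 in control WT samples. Control KO and denervated WT samples were thus higher for long genes and control WT samples lower, with denervated KO replicate 1 apart from the other 2 of its group. With each array's trend against span removed, 1167 genes were called, 1049 of them among the 1415 and in the same direction, and 63.1% were carried by both.

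**Figure D4:**
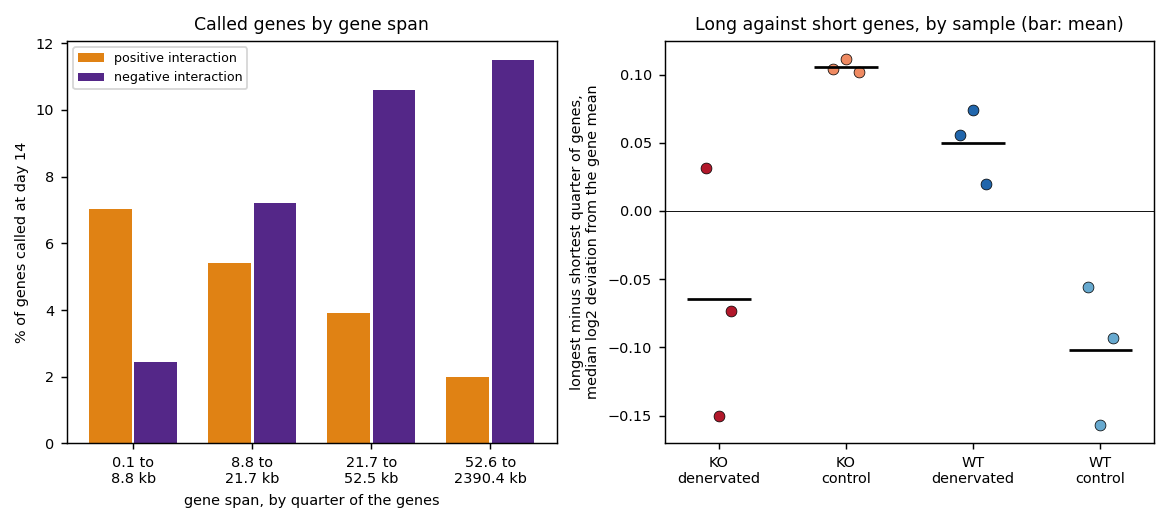
Left, share of genes (%, vertical) with a called positive or negative day 14 interaction in 4 bins of the genes by gene span (kb). Right, median log2 deviation of the longest minus the shortest bin of genes in each sample (points; bar, group mean), from left to right denervated KO, control KO, denervated WT and control WT. Negative calls become more frequent with length, from 2.44% to 11.5%, and positive ones less frequent, from 7.04% to 1.98%.

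The same grouping of samples appeared in the main axes of variation of the 12 arrays. The first principal component held 63.8% of the variance and set denervated apart from control samples. The second held 9.17% and gave scores of 10.98, 24.5 and 14.3 in denervated KO and -11.5, -14.8 and -10.1 in control KO samples, against -19.0, -13.7 and -11.9 in denervated WT and 10.3, 16.4 and 4.55 in control WT samples. It placed denervated KO with control WT samples and control KO with denervated WT samples, the contrast that the interaction measures, and no label names a batch that runs this way. The part of sample handling or RNA quality in this axis was not tested. Day 14 arrays detected 16875 to 18755 of 46632 probes, with median raw intensities of 124.7 to 173.6, and samples of a group correlated at 0.987 to 0.993 across genes.

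At day 3 the same contrast was computed in the other 12 samples of the study. It was called for 122 genes (1.08%), 73 positive (0.645%) and 49 negative (0.433%). Of the 1415 genes called at day 14, 401 had the same sign at day 3 and 1014 the opposite sign, which was not counted over all genes. Only 12 of the 1415 were called at day 3 in the same direction and 18 in the opposite one. Across all genes the rank correlation of interaction and gene span also had opposite signs, -0.26 at day 14 and 0.145 at day 3. The part of that trend in the sign counts was not tested. The 518 positive genes had a median of 0.93 log2 at day 14 and -0.21 at day 3, and the 897 negative ones -0.84 and 0.18. The difference between the interactions of the days was itself called for 924 of the 1415, and for 1644 of all genes (14.5%), 668 positive (5.90%) and 976 negative (8.62%). The day 14 samples enter both the choice of these 1415 and that difference, so the 924 are a description.

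Of the 24 genes named by size of interaction, 18 also differed between the days, against 14.5% of all genes. The day 14 values chose these 24 and enter the difference, so this count and the p-values of their differences are in part fixed by that choice. Mt1 had -0.64 at day 3 (adjusted p = 0.182), a difference of 2.65 ± 0.34 (adjusted p = 0.000731). Tsc22d3 had -0.82 at day 3 (adjusted p = 0.295), a difference of 2.94 ± 0.57 (adjusted p = 0.00576). Chrnd had 0.36 at day 3 (adjusted p = 0.382), a difference of -2.31 ± 0.30 (adjusted p = 0.000731), and Mycl 0.17 at day 3 (adjusted p = 0.872), a difference of -2.62 ± 0.61 (adjusted p = 0.0103). Myh1 had 1.61 at day 3 (adjusted p = 0.106), a difference of -3.59 ± 0.68 (adjusted p = 0.00484). None of these 5 passed at day 3. Ncmap was the exception, with an interaction of -1.48 at day 3 (adjusted p = 0.00664), a difference of -0.51 ± 0.36 (adjusted p = 0.349), so that its lower denervated minus control difference in KO muscle was seen at both times. At day 14 that difference is taken against values at background, as given above. Myom3, also near Trim63, turned round, with 1.54 at day 3 (adjusted p = 0.00339), a difference of -2.78 ± 0.33 (adjusted p = 0.00051). Trim63 itself had -1.34 at day 3 (adjusted p = 0.00865), a difference of 1.53 ± 0.33 (adjusted p = 0.00797). For Chrna1, Krt8 and Lrp4 the difference between days did not pass (-0.09, -0.04 and -0.84 log2).

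**Figure D5:**
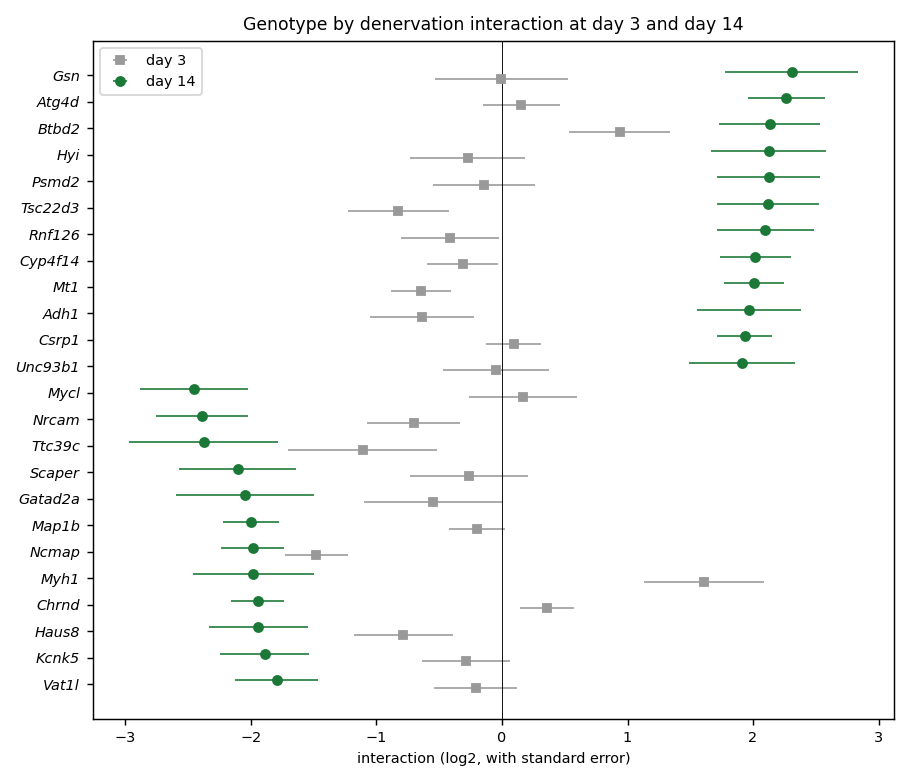
Interaction (log2, with standard error) of the 24 named genes at day 14 (circles) and day 3 (squares). At day 3 the values lie nearer 0 for each of the 24, with Ncmap at -1.48 and Myh1 at 1.61 the furthest from it.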

How the data were processed

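Illumina BeadChip arrays of 24 muscle samples were used, of which the 12 taken at day 14 form the comparison. The deposited intensity values are summarized probe brightnesses without normalization, with a detection p-value for each probe, per the file headers, and were made in BeadStudio 3.2.3 per the submitters' processing notes. The authors' processed intensity table served as an alternative, and its normalization method is not given in the sources used here. Values were background-corrected with normexp (offset 16), quantile-normalized and put on a log2 scale with limma 3.58.1 in R 4.3.3. Probes detected at p under 0.05 on at least 3 arrays were kept, named through Entrez IDs against RefSeq, and the brightest probe stood for a gene, leaving 11317. One limma fit of 8 group means over all 24 arrays gave every contrast. A fold against a group in which no array detected the probe is written as at least, against the lowest detected signal. Depth of reads does not apply, and the number of arrays limits precision. The 12 largest positive and 12 largest negative interactions with adjusted p under 0.05 and non-overlapping genotypes are named, passing over predicted and clone names, with Trim63, its neighbours and members of the lists. For the difference between days the 5 largest each way are named. Gene lists, markers and these rules were chosen with earlier results of these data known. The fit was run on simulated data with effects added to denervated KO samples and independent noise. Trends shared by many genes of an array, such as that with gene span, were not simulated. Replicate numbers did not pair the samples: over the 18 same-numbered pairs at day 14 the correlation of deviations was -0.179 to 0.0985. Alternatives are listed in the closing part.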

Additional observations from a re-analysis of the deposited data

Results flagged for a closer look

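The genotype by denervation interaction differed between day 14 and day 3, by the limma test of that difference (adjusted p under 0.05 over all genes), for 18 of the 24 genes named by size at day 14. Since the day 14 values chose these genes, the differences are in part fixed by that choice, and for Cyp4f14 also by the detection filter. In log2, day 14 minus day 3, they were 2.31 for Gsn, 2.11 for Atg4d, 2.40 for Hyi, 2.26 for Psmd2, 2.94 for Tsc22d3 and 2.51 for Rnf126. They were 2.33 for Cyp4f14, 2.65 for Mt1, 2.60 for Adh1, 1.84 for Csrp1 and 1.97 for Unc93b1. The negative ones were -2.62 for Mycl, -1.69 for Nrcam, -1.80 for Map1b, -3.59 for Myh1, -2.31 for Chrnd, -1.60 for Kcnk5 and -1.59 for Vat1l.

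Over all genes the 5 largest rises between the days were those of Ccl12 (4.19), a chemokine that draws monocytes, Sec61b (3.87), a subunit of the channel into the endoplasmic reticulum, H2ac12 (3.71), a histone of a family of near-identical copies, Angptl7 (3.52), a secreted angiopoietin-like protein, and Ccl7 (3.40), another monocyte chemokine. The 5 largest falls were those of Fam83d (-4.00), a protein of the mitotic spindle, Myh1 as above, Abat (-3.01), the enzyme that breaks down GABA, Ddit4l (-2.90), an inhibitor of mTORC1, and Mfsd4b1 (-2.79), a membrane transporter. Only Sec61b, Myh1 and Abat of these 10 had a called interaction at day 14 itself (1.75, -1.98 and -1.002 log2), and Abat kept its call in 4 of the 12 fits that left out 1 sample. The day 14 interactions of the others did not pass in limma, with adjusted p from 0.0559 for Ccl12 to 0.378 for Ddit4l.

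Outside the named genes, 447 of 5683 kept probes with no gene name here had a called interaction at day 14 (7.87%), 179 positive and 268 negative.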

How the results depend on the processing

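The day 14 interaction was called for 1415 genes, and for 1302 with median scaling, 1341 in the authors' processed values, 1827 without background correction, 1662 with an offset of 50, 1209 without a detection filter, 1591 with a stricter one and 1109 with probes averaged. It was 1879 with day 14 samples alone, 2410 with detected probes as a covariate and 2611 with array weights. Removing the trend against gene span, an alternative added after seeing the data, gave 1167. KO against WT passed in denervated muscle for 783 genes, and for 520 (median scaling), 1791 (covariate) and 2243 (weights), and in control muscle for 624, and for 258 (median scaling), 961 (no background correction), 942 (day 14 alone) and 1427 (weights). The day 3 interaction passed for 122 genes, and for 80 (authors' values), 244 (no background correction), 206 (offset of 50), 60 (no filter), 70 (averaged probes), 10 (covariate) and 2225 (weights). The difference between days passed for 1644, and for 812 (covariate) and 3637 (weights).

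Genes carried by both numbered 915, and 1476 (covariate), 1497 (weights) and 58 by the adjusted p of each genotype difference. Those carried by the denervated groups numbered 272, and 640 (covariate), 594 (weights) and 442 (adjusted p). Those carried by the controls numbered 228, and 149 (median scaling), 343 (no background correction), 345 (day 14 alone) and 520 (weights). The share carried by both stayed between 57.3% and 71.7% over the settings that kept the share rule.

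Leaving out 1 of the 12 samples gave 708 to 1475 genes for the interaction, 300 to 771 for KO against WT in denervated and 150 to 641 in control muscle. It gave 62 to 124 for the day 3 interaction and 1023 to 1794 for the difference between days. Carried by both were then 442 to 970, by the denervated groups 150 to 337 and by the controls 99 to 238. The lowest counts came without denervated KO replicate 2 or, for control muscle and the controls, control WT replicate 2, and for day 3 denervated KO replicate 3. The fit with a replicate block, which the pairing check did not call for, gave 1137 genes, and 60 at day 3. At day 14, 3 of 12 samples correlated best with their own number.

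With probes averaged, Smox (0.22) and Tef (0.14) reversed, against -0.87 and -1.08, and Atg4d and Kcnk5 lost their calls, as did 34 of the 104 called list members, these 2 reversed ones included. Of the 104, 24 lost their call with median scaling, 22 with the span trend removed, 20 with the replicate block, 18 without a filter, 11 with day 14 samples alone and 5 in the authors' values, and 16 to 46 when 1 sample was left out. Gatad2a lost its call with day 14 samples alone. The other 21 of the 24 genes named by size kept direction and call in every alternative that measured them. The cause of these changes was not tested, beyond the other probes given above. A fit with the chip as a block was not run, since the labels and headers used here name no chip. Probes below background set the limit of measurement for genes that control muscle hardly expresses.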
